A study of Mus musculus with 4 samples.

Results

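The methylomes of induced pluripotent stem cells (iPSCs) and of midbrain dopaminergic (mdDA) neurons taken from the embryo were compared by reduced representation bisulfite sequencing (RRBS), in which DNA is cut with MspI at CCGG, short fragments are selected and the methylation of their cytosines is read after bisulfite conversion. The comparison used 2 of the 4 libraries of the series, 1 per condition. Its members were the autosomal cytosine positions with at least 5 methylation calls in both libraries, which were 849999 of the 3940941 positions listed in at least 1 library. The methylation level of a position is the percent of its calls that were methylated, and a change is the level in mdDA neurons minus the level in iPSCs, in percentage points. Positions less than 100 bp from the next one were joined into stretches, and a stretch of at least 10 positions was called a run, which left 561893 positions (66.1%) inside 17575 runs and 288106 outside them. Runs were defined by which positions were covered and not by their levels, so that they mark CpG-dense fragments without being a list of CpG islands.

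The iPSCs were reprogrammed from embryonic fibroblasts of Pitx3 Gfp/+ mice by retroviral Oct4, Klf4, Sox2 and cMyc and were grown on gelatin. The mdDA neurons were sorted for PITX3-GFP from the ventral midbrain of Pitx3 Gfp/+ embryos at E14.5, so that both conditions carry the GFP knock-in on 1 Pitx3 allele. The sources used here do not tie the sequenced iPSC library to one of the clones or passages that the study describes, and the number and sex of the embryos behind the mdDA library were not given. The other 2 libraries hold NESTIN-GFP precursors and dopaminergic neurons made from iPSCs (iPSC-DA neurons), and they are given only as further values. According to the paper, Nestin-Gfp mice also gave fibroblasts for reprogramming, and the precursors came from a NESTIN-GFP reporter line of iPSCs. The NESTIN-GFP library had 31419979 calls and the iPSC-DA library 79648099. The iPSC library had 68545752 calls and the mdDA library 72993474, with medians of 85 and 72 calls per position inside runs and of 36 and 40 outside. With 1 library per condition there was no replicate check, so that a Fisher's exact test below compares these libraries and not the conditions, and neighbouring calls on 1 read are linked, which makes its p-values too small.

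In mammals, CpGs lie mostly methylated across the genome while CpG-dense promoters stay free of methylation. After implantation the embryo's genome is methylated anew by DNMT3A and DNMT3B and the pattern is copied at each division by DNMT1 with UHRF1, and the TET enzymes oxidise the mark. Promoters of genes that act only in germ cells gain methylation in the somatic lineages and are known for being silenced by it, and at imprinted genes the allele from 1 parent carries the mark.

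**Figure D1:**
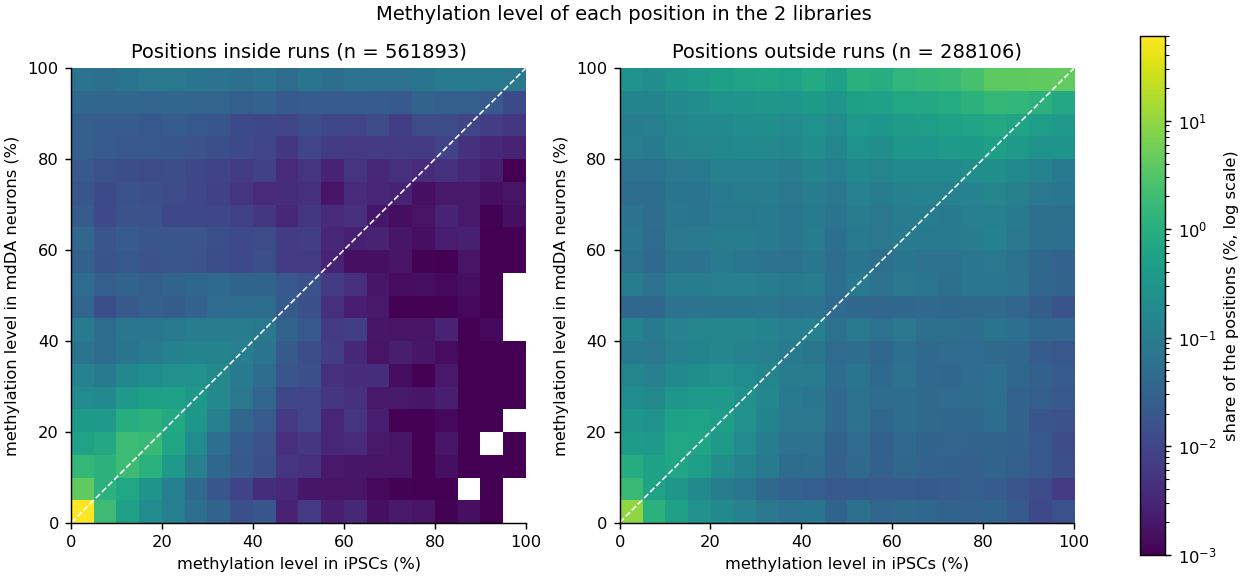
Methylation level of each position in iPSCs (x axis, percent) and in mdDA neurons (y axis, percent), in bins of 5 points, for the 561893 positions inside runs and the 288106 outside; colour gives the share of positions on a log scale and the dashed line marks equal levels. Positions inside runs crowd at the lower left, and outside runs the positions lie above the line across the middle of the iPSC scale, with dense bins at the lower left and the upper right.

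Inside runs both libraries were low. The mean level was 6.17% in iPSCs and 8.88% in mdDA neurons, and the medians were 0.806% and 1.28%. The mean change was 2.71 points, between 1.42 on chromosome 16 and 4.26 on chromosome 7. Of all positions inside runs, 4.36% gained at least 20 points and 0.591% lost as much. Outside runs the difference was larger on every autosome. The mean there rose from 49.5% to 63.6%, a change of 14.2 points with a range of 12.1 on chromosome 1 to 17.2 on chromosome 10, and the medians were 53.8% in iPSCs and 84.0% in mdDA neurons. Gains of at least 20 points took 32.1% of the positions outside runs and losses 5.75%.

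The shape of the distribution outside runs differed as well as its mean. In iPSCs 43.5% of these positions (95% Wilson interval 43.3 to 43.6, counting error only) lay between 20% and 80%, and in mdDA neurons 23.1% did (23.0 to 23.3). The share at 80% or more was 27.9% in iPSCs and 54.1% in mdDA neurons. The share under 20% moved less, from 28.7% to 22.7%. In iPSCs most positions outside runs were thus at an intermediate or low level, whereas in mdDA neurons most were highly methylated. The levels of the 2 libraries had a Pearson r of 0.735 over the 288106 positions outside runs and of 0.774 over the 561893 inside, given as a description, since positions share libraries and fragments.

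**Figure D2:**
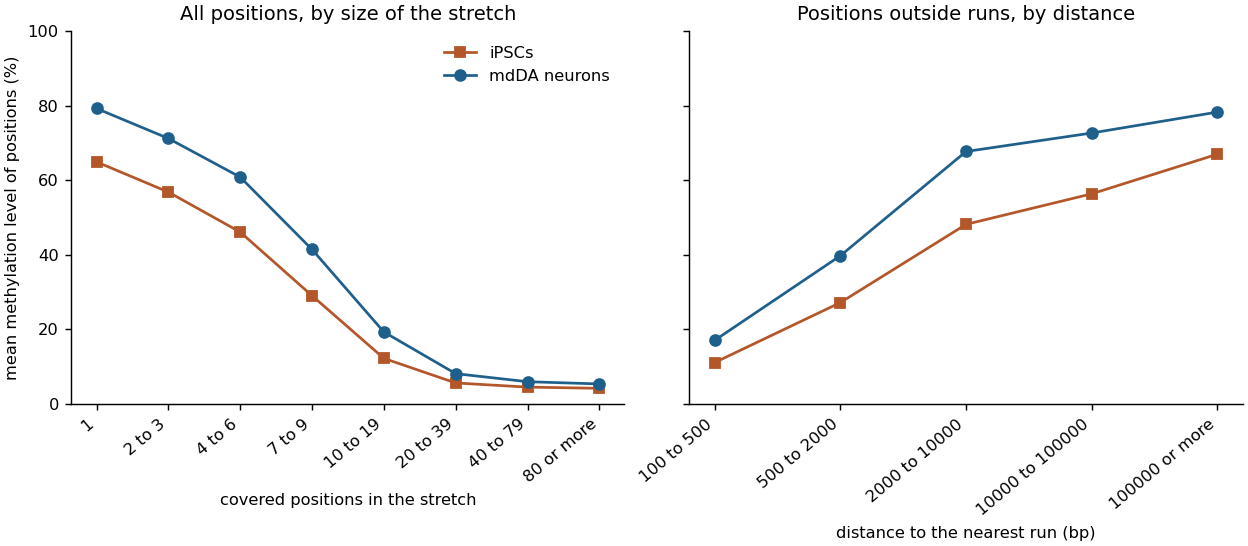
Mean methylation level (percent) of positions in iPSCs (squares) and mdDA neurons (circles), by the number of covered positions in their stretch (left) and, for positions outside runs, by the distance to the nearest run in bp (right). The mdDA mean lies above the iPSC mean in every class. The gap is 14.3 to 14.8 points in stretches of up to 6 positions and narrows in longer ones, to 1.18 points at 80 or more positions.

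The change differed little among stretches of up to 6 covered positions and fell in longer ones, to 12.4 points at 7 to 9 positions. Single positions averaged 65.0% in iPSCs and 79.3% in mdDA neurons, a change of 14.3 points, and stretches of 4 to 6 positions changed by 14.8 points. Stretches of 10 to 19 positions changed by 7.08 points, from 12.2% to 19.3%, those of 20 to 39 by 2.50, and those of 80 or more by 1.18, from 4.18% to 5.36%. Among positions outside runs the change was 5.95 points within 500 bp of a run, where the iPSC mean was 11.1%, rose to 19.6 points at 2000 to 10000 bp, where it was 48.2%, and was 11.3 points beyond 100000 bp, where it was 67.0%. The positions that changed most on average thus lay at middle distances from runs, where the starting level was also in the middle of the scale.

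**Figure D3:**
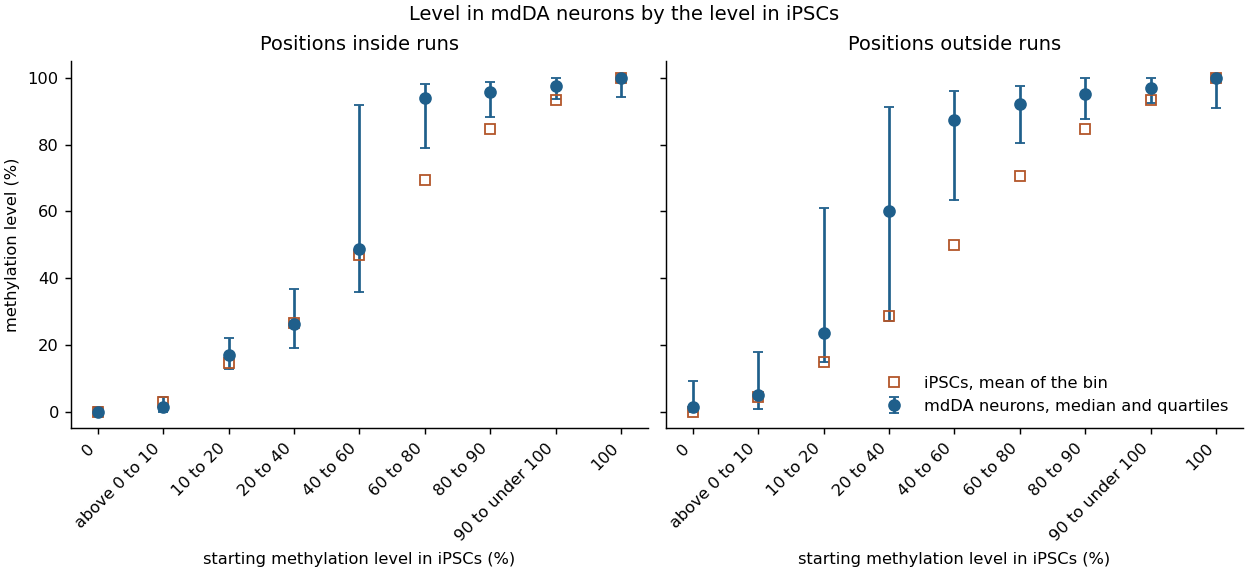
Methylation level in mdDA neurons (circles, median, with bars for the quartiles, percent) for positions grouped by their level in iPSCs (x axis, percent; squares give the mean iPSC level of each group), inside and outside runs. Outside runs the mdDA medians stand above the iPSC means from 10% to 90%, most of all at 40% to 60%, whereas inside runs they lie near the iPSC means up to 60%.

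Sorted by starting level, positions outside runs with an intermediate level in iPSCs changed the most. Those at 20% to 40% in iPSCs had a median of 60% in mdDA neurons, with quartiles of 27.0% and 91.2%, and 55.9% of them gained at least 20 points. Those at 40% to 60% had a median of 87.5%, and 70.9% of them gained while 8.94% lost. Of all positions between 20% and 80% in iPSCs, 61.2% stood at 80% or more in mdDA neurons and 7.20% stood under 20%. Inside runs the lower of these starting levels led elsewhere, and the highest did not. The positions at 20% to 40% had a median of 26.3% in mdDA neurons, and 13.4% of them gained. Those at 40% to 60% had a median of 48.75%, and 37.0% of them gained. At 60% to 80% the mdDA median was 93.8% inside runs and 92.2% outside, and 54.6% and 49.8% of the positions gained.

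Positions at the ends of the scale mostly stayed there. Outside runs, 67.1% of the positions under 20% in iPSCs were under 20% in mdDA neurons as well, 22.3% reached 20% to 80% and 10.6% reached 80% or more, and 23.4% (95% Wilson interval 23.1 to 23.7) gained at least 20 points. Inside runs 92.7% of the low positions stayed under 20%, and 2.88% (2.83 to 2.92) gained. At 80% or more in iPSCs, 88.0% of the positions outside runs and 87.5% of the 3180 inside were at 80% or more in mdDA neurons. Losses of at least 20 points were seen at 8.40% (8.21 to 8.59) of these high positions outside runs and at 8.81% (7.87 to 9.84) inside, where the share was 21.1% (56 of 265) once runs needed 20 positions. The low positions thus differed between the 2 places far more than the high ones. When the iPSC calls of each position were split at random, with the starting level from one set and the change from the other, 22.1% of low positions outside runs gained and 7.56% of the high ones lost.

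The strands of a CpG gave a measure of the spread within a library. Of 11341 CpGs outside runs with both strands covered, the right strand stood at least 20 points above the left at 7.49% in iPSCs and at least 20 points below it at 8.32%. Between the libraries, 30.9% of the same CpGs gained at least 20 points on the left strand and 5.08% lost as much. Of the left-strand gains, 71.9% were gains on the right strand too, and of the losses 59.7%. Inside runs 93139 CpGs had both strands. There the right strand stood at least 20 points above the left at 2.42% in iPSCs and 3.20% in mdDA neurons. It stood as far below at 2.40% and 3.27%. Between the libraries, 4.07% of these CpGs gained at least 20 points on the left strand and 0.660% lost as much. Of these gains 56.3% were shared by the right strand, and of the losses 18.2%. Gains outside runs therefore exceeded the spread between strands in number, whereas most single-strand losses inside runs were not seen on the partner strand. Inside runs the gains were only somewhat more frequent than that spread, and the losses were less frequent than it.

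A technical feature moved with the levels. In promoters that were low in both libraries, CpGs in the MspI site CCGG had a mean level of 17.8% in iPSCs and 21.0% in mdDA neurons over 20560 positions, and other CpGs had 1.26% and 2.14% over 81196 positions. The change was 3.26 points at CCGG and 0.878 elsewhere. Some 81.3% of the CCGG positions lay between 10% and 40% in iPSCs, and 83.0% did in mdDA neurons. The part of these positions in the mean changes inside and outside runs and in the values by starting level was not tested. Sites can be read only in the promoters tied to genes below.

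Of the 17575 runs, 1081 (6.15%) were higher in mdDA neurons by at least 20 points at an adjusted p under 0.05 (Fisher's exact test on pooled calls, Benjamini-Hochberg), and 65 (0.370%) were lower. Most runs, 15913 (90.5%), were under 20% in both libraries, 181 were at 80% or more in both, and 22 were at 40% to 60% in both. The higher runs had a median level of 25.9% in iPSCs and of 91.4% in mdDA neurons, and in the median such run 100% of the positions gained at least 20 points. These runs were called by a pooled gain of at least 20 points, so that this share follows in part from the call. Of the higher runs, 449 started under 20% in iPSCs and 632 between 20% and 80%. Among the former, 197 were at 80% or more in mdDA neurons and 94 were at 40% to 60%, with a median change of 39.6 points in the latter.

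Higher runs were short. They made up 12.1% of runs of 10 to 19 positions (95% Wilson interval 11.4 to 12.8), 2.37% of those of 20 to 39 (1.996 to 2.81), 0.670% of those of 40 to 79 (0.447 to 1.00) and 4 of 1098 runs of 80 or more. The 65 lower runs included 62 of 10 to 19 positions, 3 of 20 to 39 and 0 longer ones. The counts rest on these limits, since with a minimum of 5 positions 5697 runs were higher and 653 lower, and with 20 positions 154 and 3, while 35 runs were lower when strands were merged and 38 at a change of 30 points. Lower runs fell from a median of 64.0% in iPSCs to 18.6% in mdDA neurons, and 35 of them were under 20% there. The higher runs were highly methylated in both other libraries, and the lower runs were so in the NESTIN-GFP library. The median of the higher runs was 93.5% in the NESTIN-GFP library and 89.1% in iPSC-DA neurons, and the median of the lower runs was 87.4% and 59.9%. The fall from iPSCs to mdDA neurons at the lower runs is set by the call. In iPSC-DA neurons the lower runs were spread, with 2 of the 65 under 20%, 20 at 40% to 60% and 17 at 80% or more.

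By position (build NCBIM37), the 5 largest gains among the 129 higher runs with at least 20 positions of 10 calls in both libraries went from nearly free to nearly full methylation. The largest was chr6:48547392-48547644, where 21 positions stood at 5.86% of 2030 calls in iPSCs and at 97.5% of 2057 calls in mdDA neurons, with every mdDA position at 92.0% or more. At chr14:55250959-55251260 the level went from 6.68% to 95.7% over 38 positions. At chr13:34838928-34839251 it went from 8.70% to 96.4% over 30 positions. These runs were at 94.3%, 81.3% and 90.5% in NESTIN-GFP precursors. At chr7:50930657-50930920 the level was 9.11% in iPSCs and 96.8% in mdDA neurons over 21 positions, and at chr7:134891817-134891961 it was 8.63% and 95.8% over 29. None of these 5 runs overlapped a promoter window tied to a gene below.

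The 3 higher runs with the most positions differed in how far they went. The run chr5:93370789-93371785, 997 bp with 103 positions, went from 8.80% to 94.5%, and each of its 103 positions gained at least 20 points. The run chr7:114353284-114354168, with 110 positions and next to the tied promoter of Rbmxl2, a gene for a germ-cell RNA-binding protein, went from 3.19% to 30.4% with 69 positions gaining. The run chr7:69608697-69609420, 104 positions at Peg12, a paternally expressed imprinted gene, went from 4.23% to 24.3% with 39 gaining. In the latter runs mdDA positions ranged from 0% to 71.1% and from 0% to 80%, so that methylation was uneven along them.

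Only 2 lower runs had enough deep positions to be named by size. The run chr7:7230386-7230541 (22 positions) fell from 70.6% of 1448 calls to 26.4% of 1940 calls, with 17 positions losing at least 20 points and 3 gaining as much. The run chr17:86080114-86080484 (20 positions) fell from 36.3% to 13.2%. The lower run with the most positions, chr10:79393533-79393925 with 23, fell from 82.4% to 52.6%, and was at 96.0% in iPSC-DA neurons and 95.4% in NESTIN-GFP precursors.

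To name genes, the promoter windows of RefSeq (300 bases, 250 of them before the start of the gene) were placed on the covered positions by the spacing of their CpGs, and a window was taken as tied where 1 place matched at least 1.5 times as many positions as any other on its chromosome. Of 32851 windows 8779 were tied, and 5783 promoters, after overlapping windows were joined, had at least 5 positions in the comparison. The median level was 4.42% in iPSCs and 5.67% in mdDA neurons. At the thresholds used for runs 72 promoters (1.25%) were higher in mdDA neurons and 10 (0.173%) were lower. A tie needs 10 matched positions, which CpG-poor promoters seldom have, and 4 of 25 pluripotency genes and 8 of 19 midbrain dopaminergic genes could be read, so that Pou5f1, Nanog and Th have no value here.

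Sequences of 250 bases before the start are shown for a germline pair that gained, Hormad1 and Ddx4, for the imprinted gene Zrsr1, which rose to an intermediate level, for the neuropeptide gene Cck, which fell, and for the dopaminergic gene Nr4a2, which was low in both. They are RefSeq sequences (GRCm38.p6), read along the gene, with the covered CpGs in capitals, and a final capital C has its G at the start. On NCBIM37 the stretches were placed at chr3:95363349-95363598 (plus strand), chr13:113442519-113442768 (minus), chr11:22871755-22872004 (plus), chr9:121404813-121405062 (minus) and chr2:56976415-56976664 (minus).
Hormad1: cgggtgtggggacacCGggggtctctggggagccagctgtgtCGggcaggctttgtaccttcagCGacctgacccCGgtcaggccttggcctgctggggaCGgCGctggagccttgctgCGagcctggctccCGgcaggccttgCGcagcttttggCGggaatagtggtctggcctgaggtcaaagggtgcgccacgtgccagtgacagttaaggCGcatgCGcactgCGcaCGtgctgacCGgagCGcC
Ddx4: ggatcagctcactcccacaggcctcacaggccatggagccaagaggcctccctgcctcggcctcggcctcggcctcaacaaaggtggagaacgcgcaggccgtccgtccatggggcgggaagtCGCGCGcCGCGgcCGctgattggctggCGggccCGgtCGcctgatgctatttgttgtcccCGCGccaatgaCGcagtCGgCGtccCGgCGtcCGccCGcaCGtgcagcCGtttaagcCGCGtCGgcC
Zrsr1: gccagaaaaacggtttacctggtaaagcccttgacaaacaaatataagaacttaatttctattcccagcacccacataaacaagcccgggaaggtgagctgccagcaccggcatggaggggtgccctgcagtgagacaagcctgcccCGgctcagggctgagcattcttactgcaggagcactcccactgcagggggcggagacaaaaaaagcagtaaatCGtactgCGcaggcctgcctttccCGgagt
Cck: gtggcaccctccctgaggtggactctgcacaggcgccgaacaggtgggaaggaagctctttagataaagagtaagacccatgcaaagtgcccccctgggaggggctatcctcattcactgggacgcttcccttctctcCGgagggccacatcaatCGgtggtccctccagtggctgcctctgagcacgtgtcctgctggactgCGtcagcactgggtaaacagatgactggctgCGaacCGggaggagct
Nr4a2: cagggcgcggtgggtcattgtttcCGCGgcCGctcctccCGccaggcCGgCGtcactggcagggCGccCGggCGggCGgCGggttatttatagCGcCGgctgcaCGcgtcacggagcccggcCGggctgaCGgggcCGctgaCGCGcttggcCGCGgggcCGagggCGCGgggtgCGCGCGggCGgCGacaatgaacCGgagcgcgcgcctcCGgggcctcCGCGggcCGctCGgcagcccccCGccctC

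**Figure D4:**
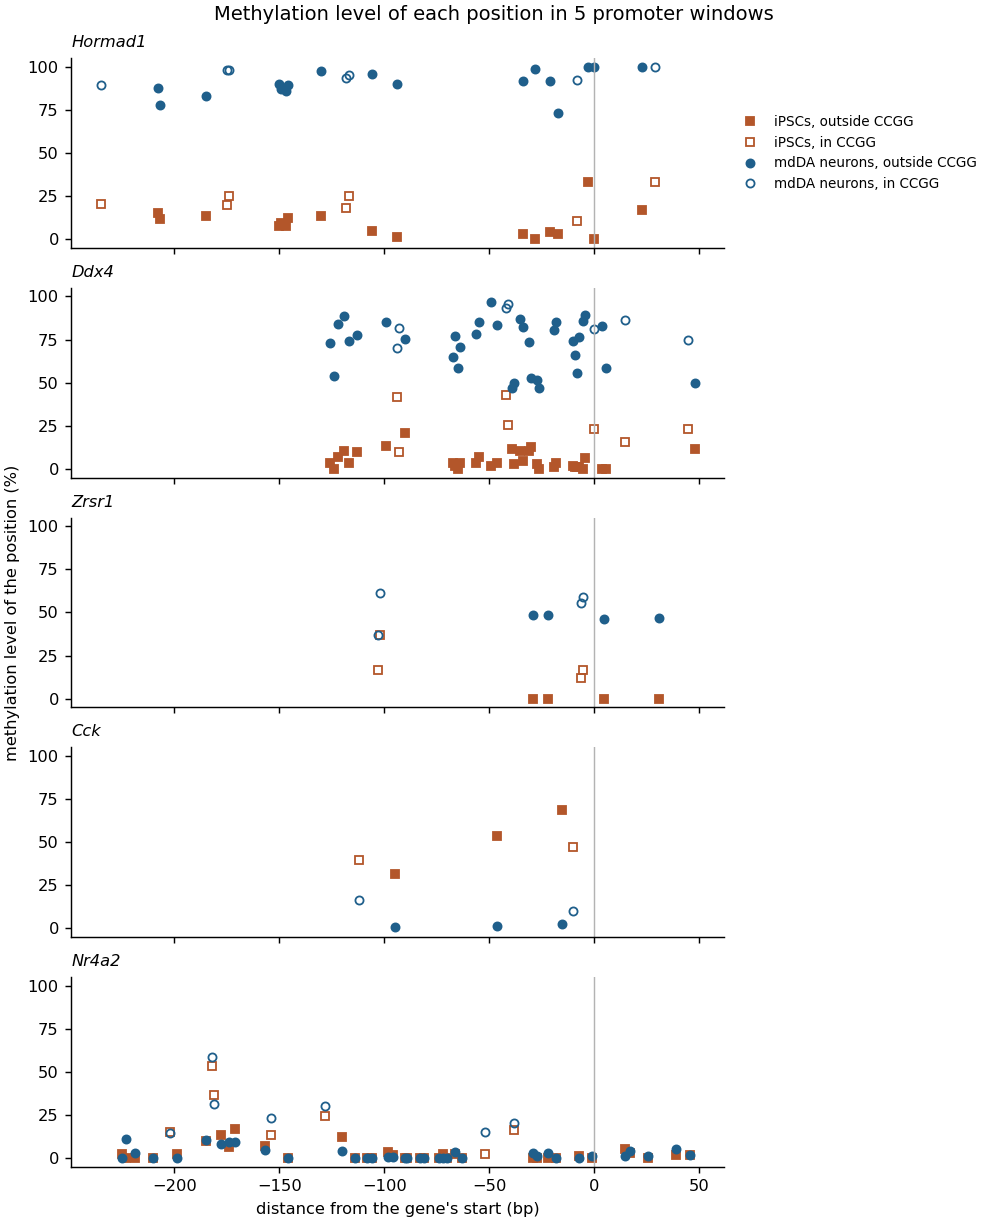
Methylation level of each covered position (y axis, percent) by its distance from the start of the gene (x axis, bp) in the promoter windows of Hormad1, Ddx4, Zrsr1, Cck and Nr4a2, in iPSCs (squares) and mdDA neurons (circles); open symbols are positions in CCGG. The libraries separate at every position of Hormad1, Ddx4 and Cck, with Cck in the opposite direction, the mdDA positions of Zrsr1 lie between 36.8% and 61.2%, and the libraries overlap at Nr4a2.

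Promoters of germline genes rose together. Of 22 listed genes 8 were tied and all 8 were higher in mdDA neurons, against 1.25% of all tied promoters, with a median change of 78.1 points, against 1.01 over all tied promoters. Mael, needed for transposon silencing in germ cells, went from 8.42% of 190 calls to 96.2% of 396 calls. Sohlh2, a transcription factor of early gametogenesis, went from 8.59% to 96.2%. Dazl, a germ-cell RNA-binding protein, went from 14.1% to 94.7% over 6 positions. Each of the 3 was covered by 8 positions or fewer, and every one of these positions gained at least 20 points.

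Hormad1, a protein of the meiotic chromosome axis, was read at 24 positions and went from 12.2% of 2460 calls to 90.4% of 1843 calls. Its mdDA positions lay between 73.0% and 100%, and its iPSC positions between 0% and 33.3%. Slc25a31, a testis ADP/ATP carrier, went from 15.4% to 93.4%. Ddx4, the germ-cell helicase also known as vasa, had the widest coverage of the list, 42 positions, and went from 8.60% of 2791 calls to 75.04% of 2596 calls. All 42 gained, but unevenly, from 46.7% to 96.8% in mdDA neurons. The other two, named after their values were seen, were Sycp1, of the synaptonemal complex, at 30.5% and 96.8%, and Asz1, of the piRNA pathway, at 33.0% and 96.9%. The 8 genes had a median of 89.0% in iPSC-DA neurons and 92.5% in NESTIN-GFP precursors.

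**Figure D5:**
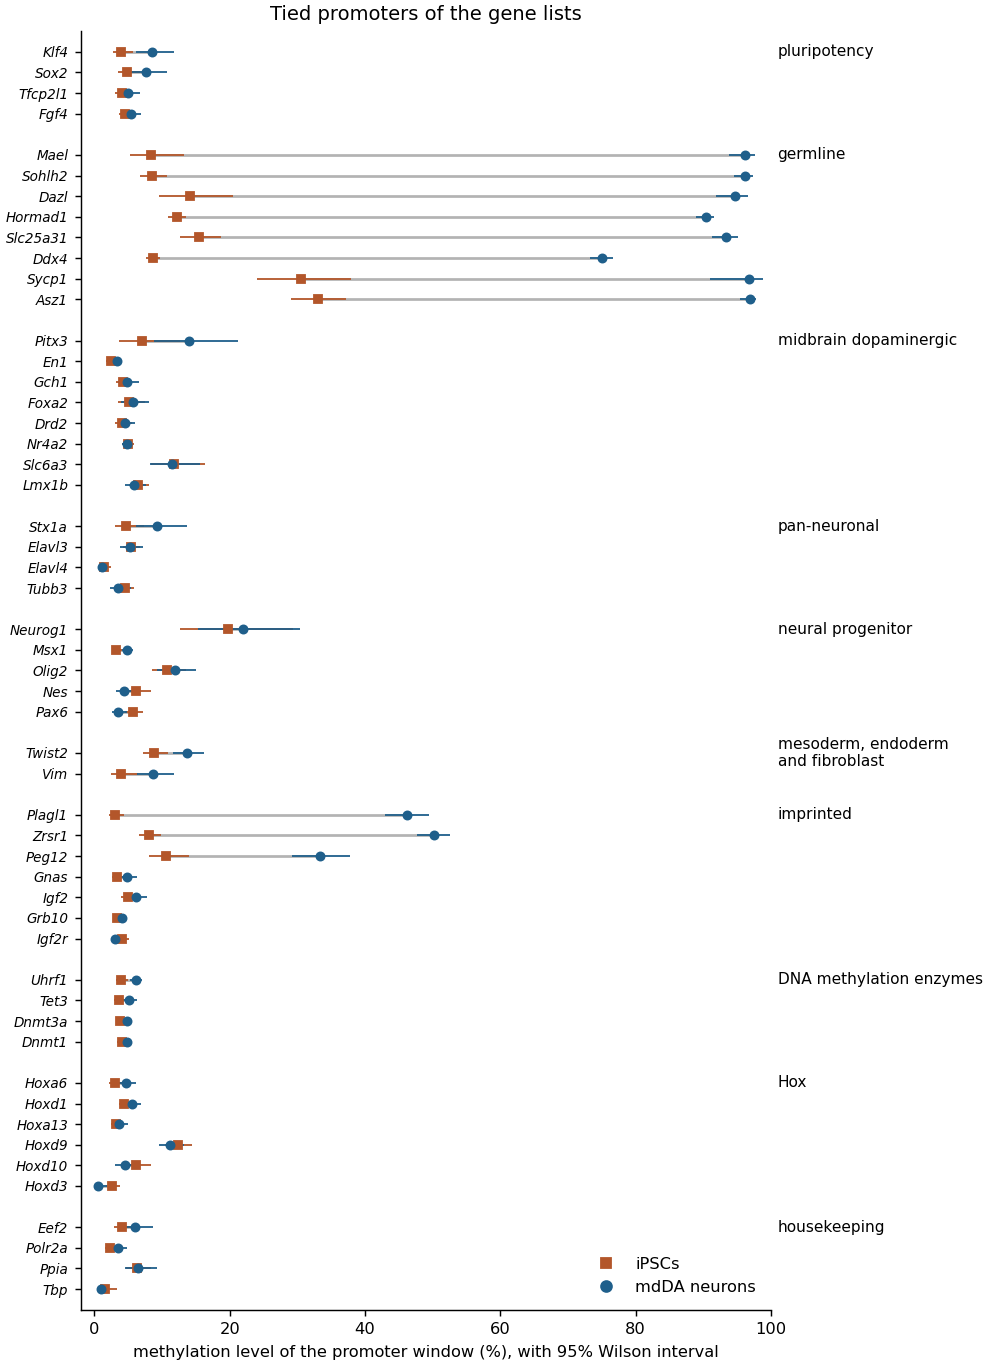
Methylation level (x axis, percent, with 95% Wilson intervals for counting error only) of each tied promoter of the 10 gene lists in iPSCs (squares) and mdDA neurons (circles). All 8 germline promoters and 3 of 7 imprinted promoters lie apart, with mdDA neurons higher, and the promoters of the other lists lie at 21.9% or less in both libraries.

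Other germ-cell genes were among the 72 higher promoters, picked after their values were seen. Gpat2, linked to piRNAs, went from 11.6% to 93.1%, Btbd18, a regulator of piRNA loci, from 14.3% to 96.9%, and Naa11, a testis acetyltransferase copy, from 10.6% to 96.4%. Dmrtb1, a factor of spermatogonial differentiation, went from 15.4% to 93.7% over 22 positions. Several stopped midway. Boll, a DAZ-family protein, stood at 50.4% in mdDA neurons (8.93% in iPSCs) over 33 positions, Rbmxl2 at 49.4% (4.52%), Papolb, a testis poly(A) polymerase, at 54.7% (7.15%) and Hormad2 at 51.7% (6.71%). Sox30, a testis transcription factor, went from 6.12% to 26.8%. Of the 72 higher promoters, 39 were at 80% or more in mdDA neurons and 14 at 40% to 60%.

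The E-box CACGTG, read on both strands of the 300-base windows, was in 10.9% of all tied promoters, in 7.15% of all 32851 windows, in 20.8% of the higher ones (15 of 72) and in 5 of the 8 germline promoters, and TCCCGC, an E2F-type motif, was in 45.4%, 19.98%, 34.7% and 5 of 8. Where they overlap, the motifs can share 1 base at most. The same 5 germline genes, Ddx4, Hormad1, Mael, Slc25a31 and Sycp1, held both. A match is a description of the letters in the window.

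Imprinted genes split. Of 24 listed genes 7 were tied, 3 were higher (1.25% of all tied promoters were) and 0 lower, with a median change of 1.53 points. Plagl1, a paternally expressed zinc finger gene whose window overlaps that of Hymai, went from 3.10% of 1000 calls to 46.2% of 868 calls, and Zrsr1, a paternally expressed retrogene, from 8.05% of 1043 calls to 50.2% of 1553 calls. At Zrsr1 the positions outside CCGG were at 0% in iPSCs, and between 46.2% and 48.6% in mdDA neurons. Peg12 went from 10.6% to 33.3%. Mcts2, an imprinted retrogene outside the list that was picked after its value was seen, went from 5.42% to 54.1%. The promoter windows of Igf2r (4.03% and 3.03%), Grb10 (3.31% and 4.14%), Gnas (3.37% and 4.89%) and Igf2 (4.92% and 6.23%) were low in both libraries. Near the Gnas window at chr2:174155257-174155556, however, the higher run chr2:174153351-174153504 went from 4.12% in iPSCs to 43.9% in mdDA neurons. Another, chr2:174153898-174154084, went from 5.35% to 45.9%, and both were picked after their values were seen. The low Gnas window thus does not stand for its surroundings. Plagl1, Zrsr1 and Mcts2 thus stood close to 50% in mdDA neurons and under 10% in iPSCs. In iPSC-DA neurons these windows were at 51.7%, 51.7% and 46.3%. In NESTIN-GFP precursors they were at 68.2% of 110 calls, 15.7% of 83 calls and 32.0% of 103 calls. The windows of Igf2r, Grb10 and Igf2 were at 66.7%, 41.5% and 47.5% in iPSC-DA neurons, and that of Gnas was at 4.83%.

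Promoters of lineage genes were low on both sides. None of the 4 pluripotency, 8 midbrain dopaminergic, 4 pan-neuronal, 5 neural progenitor, 2 fibroblast, 6 Hox, 4 housekeeping or 4 methylation enzyme promoters that were tied was called in either direction, beside 1.25% higher and 0.173% lower over all tied promoters, so that a count of 0 among so few is near the background. Fgf4, a growth factor of the pluripotent epiblast, was at 4.59% in iPSCs and 5.47% in mdDA neurons, and Tfcp2l1, a factor of naive pluripotency, at 4.10% and 5.01%. Nr4a2, the nuclear receptor that mdDA neurons need for their identity, was at 4.95% and 4.79% over 44 positions. En1, the homeobox gene of midbrain patterning and dopaminergic survival, was at 2.46% and 3.39%. The gene whose locus drives the GFP, Pitx3, had few calls, with 6.98% of 129 calls in iPSCs and 13.9% of 122 calls in mdDA neurons, and its 2 positions outside CCGG were at 0% in both libraries. For the pluripotency and midbrain lists the median changes were 1.83 and 0.436 points, beside 1.01 over all tied promoters. The midbrain list had a median of 32.8% in iPSC-DA neurons and 14.0% in NESTIN-GFP precursors, against 5.26% in mdDA neurons. The iPSC-DA value was not particular to this list. Medians in that library reached 35.5% for the pan-neuronal, 30.6% for the pluripotency, 29.0% for the neural progenitor and 27.6% for the Hox list. They stayed at 11.8% for the fibroblast, 6.72% for the methylation enzyme and 5.32% for the housekeeping list, beside 6.98% over all tied promoters.

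The neuronal RNA-binding genes Elavl3 and Elavl4 were at 5.35% and 1.42% in iPSCs and at 5.26% and 1.17% in mdDA neurons. Msx1, a dorsal and floor plate homeobox gene, was at 3.24% and 4.88%, and Pax6, the forebrain and progenitor gene, at 5.75% and 3.57%. The fibroblast-associated promoters Twist2 and Vim were at 8.89% and 3.94% in iPSCs and at 13.8% and 8.65% in mdDA neurons. Hoxd1 and Hoxa13 were at 4.45% and 3.20% in iPSCs and at 5.58% and 3.62% in mdDA neurons. The de novo methyltransferase gene Dnmt3a was at 3.76% and 4.78%, and Dnmt1 at 4.06% and 4.84%. The housekeeping genes Polr2a and Eef2 were at 2.32% and 4.14% in iPSCs and at 3.50% and 6.02% in mdDA neurons. The methylation of a promoter is no measure of its transcription, so that these values do not check the identity of the cells.

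The 10 lower promoters were all named after their values were seen. Whether genes of neurons were frequent among them was not tested, and such genes, Sncg and Slc30a3, were among the higher promoters too. Cck, the neuropeptide cholecystokinin, fell from 47.1% of 446 calls to 6.59% of 1032 calls. All 5 of its positions were lower, and outside CCGG the mdDA levels were 0.784% to 2.25%. Arpp21, a cAMP-regulated phosphoprotein of neurons, fell from 79.3% to 24.2%, and Slc6a9, the glycine transporter GlyT1, from 46.5% to 23.6%. The window of Slc6a9 was uneven, since of its 8 positions 4 lost at least 20 points and 2 gained as much. The magnesium transporter gene Slc41a3 fell from 96.1% of 76 calls to 61.7% of 81 calls. Its 2 positions outside CCGG went from 100% to 83.3%, a change of -16.7 points, which is short of the 20 required. The remaining 6, C230014O12Rik, Gm36794, Gm46972, Gm38732, C130026L21Rik and Gm31129, have names that state no function, and the largest fall, from 87.1% to 19.7%, was at C230014O12Rik. Cck was at 78.4% in the NESTIN-GFP library and 20.2% in iPSC-DA neurons, while Arpp21 was at 90.1% and 73.9%.

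With CCGG positions left out, 44 of the 72 higher promoters had at least 5 other positions, and 41 of them passed the same thresholds, with a median change of 52.9 points over the 44. Of the 10 lower promoters, 4 had at least 5 other positions and all 4 passed. The 8 germline promoters changed by 64.5 to 95.3 points without CCGG, and Plagl1 and Zrsr1 by 47.2 and 47.4.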

How the data were processed

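RRBS libraries of 4 samples were used as deposited, 1 per condition. Per the labels and the methods, MspI fragments of 150 to 450 bp were selected, and reads were checked with FastQC, trimmed with Trim Galore 0.3.5 and aligned and called with Bareback and Bismark 0.10.1. The authors deposited, for each position, the count of methylated and of unmethylated calls and the percent methylated, with strands apart and without normalization or a depth filter. The genome build was taken as NCBIM37 from the positions, which reach 197192264 on chromosome 1. No genome of that build was used here.

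Levels were recomputed from the counts. Fisher's exact test (two-sided) was applied to the pooled calls of each run or promoter, p-values were adjusted by Benjamini-Hochberg over all runs or all tied promoters, and a change of at least 20 points was required, in Python 3.11.15 with scipy 1.17.1. Windows needed at least 10 matched positions, 1.5 times those of the next best place on the chromosome, and an order along it that fits the other genes, which removed 9 of 8788. The code was tested on simulated data. Named were, among called runs with 20 positions of 10 calls, the 5 largest changes each way, the 3 longest runs each way, and of each gene list up to 6 members past 20 points or else the 2 with the most calls. The comparison, lists and rules were chosen with earlier results of these data known. Intervals cover counting error only. Depth, the run size, strands, the size of change and the starting level were varied.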

Additional observations from a re-analysis of the deposited data

Results flagged for a closer look

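Signals outside the autosomal comparison were seen on the X chromosome and in mitochondrial DNA. On the X chromosome, 9581 positions inside runs averaged 6.57% in iPSCs and 25.7% in mdDA neurons, a change of 19.13 points, and 7302 positions outside runs averaged 48.5% and 67.1%, a change of 18.5 points. X calls came to 0.975% of the autosomal calls in iPSCs and to 1.48% in mdDA neurons. The sex of the cells was not given in the sources used here, and its part in these values was not tested. Of the mitochondrial calls, 11.8% of 1695 were methylated in iPSCs and 7.64% of 812 in mdDA neurons.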

How the results depend on the processing

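The mean changes inside and outside runs stayed above 0 under each alternative run on them. Over all 10 results 25 of the 70 alternative values stayed within the interval or within 1.5 times the count given above. A mean change has neither limit, and any other value of it was counted as moved, so that none of its alternatives could be among the 25. No paired analysis was possible because each condition has 1 library. The mean changes inside and outside runs were 2.46 and 13.8 points with a minimum of 10 calls, 2.55 and 14.0 with strands merged, 4.43 and 14.6 with runs of at least 5 positions, 1.72 and 12.3 with runs of at least 20, 2.69 and 14.1 with the deeper library thinned, and 2.70 and 14.1 without the deepest positions. Higher runs numbered 5697 with runs of at least 5 positions and 154 with at least 20, and lower runs 653 and 3, with 35 lower runs when strands were merged and 38 at 30 points. Low positions that gained, inside and outside runs, were 2.15% and 19.3% with a minimum of 10 calls, 2.57% and 22.0% with strands merged, 4.10% and 33.2% with runs of at least 5 positions, 1.97% and 15.4% with at least 20, 1.74% and 18.99% at 30 points, 2.56% and 22.1% with the iPSC calls split at random, and 2.42% and 19.99% with the starting level from the other strand. High positions that lost, inside runs, were 7.66% with runs of at least 5 positions and 21.1% with at least 20 (56 of 265 positions), 6.60% at 30 points, 7.75% with calls split at random and 7.07% with the other strand; outside runs they were 7.32% with a minimum of 10 calls, 8.69% with runs of at least 5 positions, 5.81% at 30 points, 7.56% with calls split at random and 7.34% with the other strand. Fewer or more positions enter a run by construction when its minimum size is changed, and the cause of the other shifts was not tested. Higher promoters numbered 42 and lower ones 6 without CCGG positions, where 5192 promoters had at least 5 other positions, and lower ones numbered 6 when a window needed 2 times the matches of its next best place, settings that were chosen after seeing the data.

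Limits remain. The comparison has 1 library per condition, and calls at a position with 5 reads move in steps of 20 points. Merged strands rest on neighbouring positions and not on a genome sequence. Runs hold only covered positions, and positions with fewer than 5 calls in either library are missing. Genes without a tied promoter, among them most CpG-poor ones, have no value.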

Other observations

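Some of the promoters that were higher in mdDA neurons belong to genes with roles outside the germline, and they are given here as values picked after they were seen. Lep, the gene of the adipose hormone leptin, went from 39.7% in iPSCs to 86.6% in mdDA neurons over 12 positions. Sncg, gamma-synuclein of neurons, went from 19.12% of 319 calls to 48.2% of 253 calls. Slc30a3, the zinc transporter of synaptic vesicles, went from 27.8% to 96.1% over 7 positions, in a window that overlaps that of Dnajc5g. Amn, which encodes amnionless, a partner of the intestinal vitamin B12 receptor, went from 11.8% to 36.0% over 16 positions, and was at 75.7% in iPSC-DA neurons and 76.1% in NESTIN-GFP precursors. Papolb was likewise at 94.4% and 77.0% in these libraries, beside 54.7% in mdDA neurons.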
